A study of Mus musculus with 10 samples.

Results

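A set of 9 genes for trophic factor receptors was followed in YFP-positive cells of the e10.5 mouse spinal cord. They were Gfra1, Gfra2, Gfra3 and Gfra4, which encode the GFRα co-receptors of the GDNF family, Ret, which encodes their shared signalling receptor, Met, which encodes the receptor of hepatocyte growth factor (HGF), and Ntrk2, Ntrk3 and Ngfr, which encode neurotrophin receptors. These 9 genes were taken from a list of trophic receptors and ligands, out of 48963 genes with a row of counts and 17828 genes that passed the filter on low counts. All 9 passed that filter. Gfra3 was chosen by its lower CPM in cdKO than in control samples in these same data, so its difference between genotypes is described here without a test. The question put to its 8 relatives was whether they share that difference.

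RNA was sequenced from 5 control and 5 cdKO samples. Both groups carried the Cre driver and the reporter in heterozygous state (Olig2-Cre+/- with Rosa26R-YFP+/-), so that cells with a history of Olig2 expression were labelled and sorted by FACS. Control samples were Oc1+/Flox with Oc2+/Flox, and cdKO samples were Oc1-/Flox with Oc2-/Flox, where Oc1 and Oc2 are the Onecut1 and Onecut2 genes of the Onecut (OC) transcription factor family. Controls therefore also lost a functional allele of each gene in Cre-expressing cells. Olig2-Cre is active from the progenitor stage onward and, per the study, also labels V3 interneurons (INs) next to the motor neurons (MNs), so the sorted cells were not MNs alone. The labels do not say whether each sample was a single embryo or a pool, and p-values measure only the spread between these samples.

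GFRα proteins are anchored to the outer face of the membrane and have no signalling domain of their own. Each binds a preferred ligand (GFRα1 GDNF, GFRα2 neurturin, GFRα3 artemin and GFRα4 persephin), and the pair then engages the receptor tyrosine kinase RET. In the embryonic spinal cord GDNF and RET act on the survival and axon guidance of limb-innervating MNs, and HGF acting through MET supports subsets of MNs that project to limb muscles. Ntrk2 and Ntrk3 encode TrkB and TrkC, the kinase receptors of BDNF and neurotrophin-3, and both genes also produce forms without a kinase domain. Ngfr encodes p75NTR, which binds all neurotrophins and is expressed by early MNs.

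Several of these genes produce more than a single receptor form, and the counts on exon bins (non-overlapping parts of exons) can tell the forms apart. The coding sequences at which the forms diverge are shown because the results on Ntrk2, Ntrk3, Ret and Gfra1 rest on the exons that hold them. They come from the GENCODE M21 transcripts of GRCm38 and are written 5′ to 3′ on the coding strand. Lower case marks the coding bases that both forms share, and capitals mark the bases that belong to the named form. For Ntrk2 the kinase-less form adds 38 bases, stop codon included, from chr13:58932023-58932060 (plus strand), where the kinase form continues at chr13:58985802-58985839.
Ntrk2 kinase-less end: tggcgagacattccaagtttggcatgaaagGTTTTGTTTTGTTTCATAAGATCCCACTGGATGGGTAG
Ntrk2 kinase form: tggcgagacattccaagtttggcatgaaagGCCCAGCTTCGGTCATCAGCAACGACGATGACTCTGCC

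For Ntrk3 the first 60 bases after the point of divergence are given, from chr7:78304367-78304426 in the kinase-less form and chr7:78260355-78260414 in the kinase form (both on the minus strand).
Ntrk3 kinase-less form: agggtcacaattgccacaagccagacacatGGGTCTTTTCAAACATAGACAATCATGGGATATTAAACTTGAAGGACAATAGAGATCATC
Ntrk3 kinase form: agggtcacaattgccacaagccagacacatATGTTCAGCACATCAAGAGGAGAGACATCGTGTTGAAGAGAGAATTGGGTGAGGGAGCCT

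For Ret the short form, RET9 (1073 codons), ends its coding sequence at chr6:118155256-118155287 and the long form, RET51 (1115 codons), at chr6:118153853-118154010, both on the minus strand.
RET9 end: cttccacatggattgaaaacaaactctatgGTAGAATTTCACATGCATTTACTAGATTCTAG
RET51 end: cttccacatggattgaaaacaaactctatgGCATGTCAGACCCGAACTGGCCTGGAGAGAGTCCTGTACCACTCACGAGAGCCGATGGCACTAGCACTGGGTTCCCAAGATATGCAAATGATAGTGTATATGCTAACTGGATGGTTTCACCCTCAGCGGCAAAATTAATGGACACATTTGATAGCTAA

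For Gfra1 a 15-base exon at chr19:58392573-58392587 (minus strand) is present in a transcript of 468 codons and absent from another of 463 codons.
Gfra1 with the exon: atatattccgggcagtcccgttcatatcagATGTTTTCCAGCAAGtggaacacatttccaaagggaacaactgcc
Gfra1 without it: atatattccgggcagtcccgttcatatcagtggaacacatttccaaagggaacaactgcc

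The libraries held between 63932395 and 107709534 counts on exon bins, and values are given as CPM, the count relative to the library size after TMM scaling, with 3 counts worth between 0.0288 and 0.0591 CPM. Exon 1 of Onecut1 had 63 to 210 counts in control samples and 0 to 17 in cdKO samples, and Onecut3 had 29 to 68 and 0 to 3. Onecut2 had 103 to 636 and 106 to 974 counts, and the study describes the Oc2 sequences found in mutant tissue as truncated transcripts without a functional product. Both libraries numbered 5 stood apart. On the third of each gene's exon bases nearest the 3′ end, cdKO replicate 5 had a median of 49.5% of its counts over 7586 genes and control replicate 5 had 31.5%, against 25.2% to 27.0% in the other 8 libraries. Control replicate 5 also had the highest summed CPM of 8 MN progenitor markers (2359, against 934 to 1629 in the other controls and 993 to 1876 in cdKO samples). Of this sum Hes5 alone gave 1941. The same library was the highest control sample for Sox2 (56.6 CPM), Pax6 (85.6) and Nkx6-1 (44.7) as well. It was the lowest control sample for Nes, Sox9 and Olig1, and Olig2 (77.0) lay within the range of the other controls. The sum of 4 V3 markers in control replicate 5 was 99.9 CPM, against 24.0 to 31.1 and 21.7 to 39.2, with 84.6 from Nkx2-9. There Nkx2-9 and Nkx2-2 (15.1 CPM) were at their highest of all 10 samples, and Sim1 (0.148) and Uncx (0.0444) at their lowest. Fold changes of the receptor genes are given with and without these libraries.

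Gfra3, the co-receptor of artemin, was lower in all 5 cdKO samples than in any control sample. The gene (ENSMUSG00000024366) lies on chromosome 18 from 34689898 to 34720387 on the minus strand, and all of its 8 exon bins belong to it alone. Its CPM in control replicates 1 to 5 was 3.14, 5.32, 3.77, 3.88 and 7.78, and in cdKO replicates 1 to 5 it was 2.41, 2.04, 0.787, 1.30 and 1.34. The highest cdKO sample, replicate 1, lay below the lowest control sample, also replicate 1. This ordering was shared by 40 of the 17828 genes tested (0.224%), and as Gfra3 was chosen for it, nothing is read from it here. The control mean was 4.78 ± 1.86 CPM and the cdKO mean 1.58 ± 0.646 CPM (SD, n = 5 each), which is 33.0% of the former. The log2 fold change was -1.60 with a standard error (SE) of 0.40, which placed Gfra3 at rank 93 from the lowest value of all genes tested. Without both libraries numbered 5 it was -1.31. In bulk RNA of sorted cells, a smaller number of cells that express a gene and less of its RNA per cell cannot be told apart.

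The lower level of Gfra3 ran along the whole transcript. Over its 8 exons the cdKO mean was between 28.5% of the control mean in exon 4 and 39.7% in exon 1. The groups did not overlap in exons 2, 4, 5, 6, 7 and 8. Gfra3 was chosen for its lower level in these same libraries, so nothing further is read from this. In exon 1 the control samples ranged from 0.114 to 0.393 CPM and the cdKO samples from 0.0358 to 0.203 CPM, and in exon 3 from 0.271 to 0.902 and from 0.0492 to 0.274 CPM. Control replicate 5 was the highest of all 10 samples in exons 2 to 8, but not in exon 1, where control replicate 2 was higher. The third of the exon bases nearest the 3′ end held 18.1% to 29.0% of the counts of Gfra3 in 9 libraries and 39.7% in cdKO replicate 5.

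**Figure D1:**
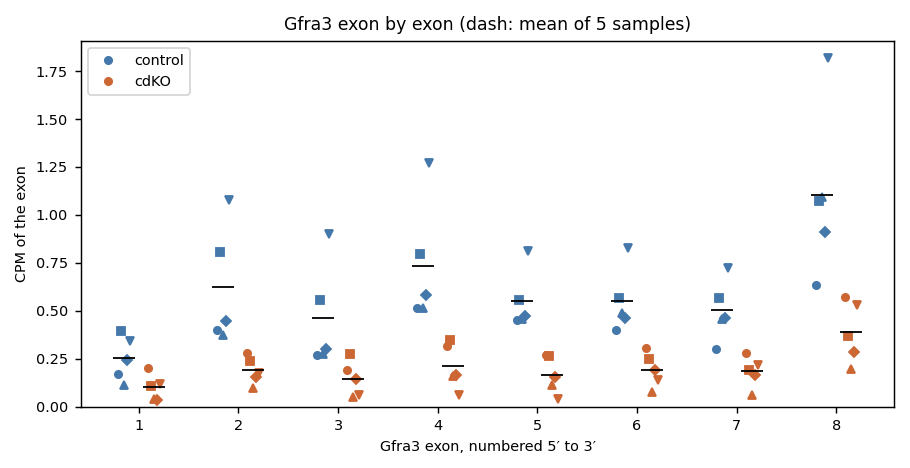
CPM of each of the 8 exons of Gfra3 (x axis, numbered 5′ to 3′) in every control and cdKO sample, with the mean of 5 samples as a dash. The cdKO mean is below the control mean in all 8 exons, between 28.5% and 39.7% of it.

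The other GFRα genes did not show this difference. Gfra1, the co-receptor of GDNF (ENSMUSG00000025089, chromosome 19, 58235604 to 58455909, minus strand), had 34.4, 36.5, 32.4, 48.6 and 10.9 CPM in control replicates 1 to 5 and 35.5, 29.1, 38.7, 37.9 and 16.6 CPM in cdKO replicates 1 to 5. The groups overlapped, and replicate 5 was the lowest sample of each. Its log2 fold change was -0.04 (SE 0.37, adjusted p = 0.999 in the quasi-likelihood test of edgeR, adjusted after Benjamini-Hochberg across the 17828 genes). Of the counts of Gfra1, 12.3% lay on a bin shared with Gm16277, and the counting did not use strand. Without both libraries numbered 5 its log2 fold change was -0.12.

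Gfra4, the co-receptor of persephin (ENSMUSG00000027316, chromosome 2, 131039632 to 131043088, minus strand), had 2.23, 3.02, 1.01, 1.84 and 2.29 CPM in control samples and 2.26, 1.99, 2.58, 1.60 and 1.85 CPM in cdKO samples. All 5 cdKO samples lay within the range of the controls. Its log2 fold change was -0.02 (SE 0.36, adjusted p = 0.999 by the same edgeR test). Of its counts, 9.18% lay on bins shared with Mir6973b, and without both libraries numbered 5 its log2 fold change was 0.045. Gfra2, the co-receptor of neurturin (ENSMUSG00000022103, chromosome 14, 70890120 to 70979838, plus strand), was close to the floor, with 1 to 34 counts in control samples and 2 to 29 in cdKO samples. Its CPM was 0.110, 0.326, 0.216, 0.122 and 0.0148 in control samples and 0.241, 0.286, 0.0738, 0.346 and 0.0394 in cdKO samples. Replicate 5 was again the lowest sample in each group, and the groups overlapped. Its log2 fold change of 0.32 came with a wide error (SE 0.74, adjusted p = 0.997 by the same edgeR test), so a difference of moderate size was not detectable at this depth. It was 0.28 without both libraries numbered 5.

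Ret, through which all of these co-receptors signal (ENSMUSG00000030110, chromosome 6, 118151745 to 118197718, minus strand), had 23.5, 27.1, 20.3, 26.2 and 8.06 CPM in control samples and 33.9, 15.6, 21.1, 17.9 and 10.9 CPM in cdKO samples. The highest value was that of cdKO replicate 1 and the lowest that of control replicate 5, so that the cdKO samples lay across the control range. Its log2 fold change was -0.08 (SE 0.38, adjusted p = 0.999 by the same edgeR test). The 95% interval ran from -0.83 to 0.66 and did not hold the value of Gfra3, but it overlapped the interval of Gfra3 (-2.39 to -0.81). Without both libraries numbered 5 the log2 fold change of Ret was -0.15. Over the 20 exon blocks of Ret no block had groups that did not overlap.

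**Figure D2:**
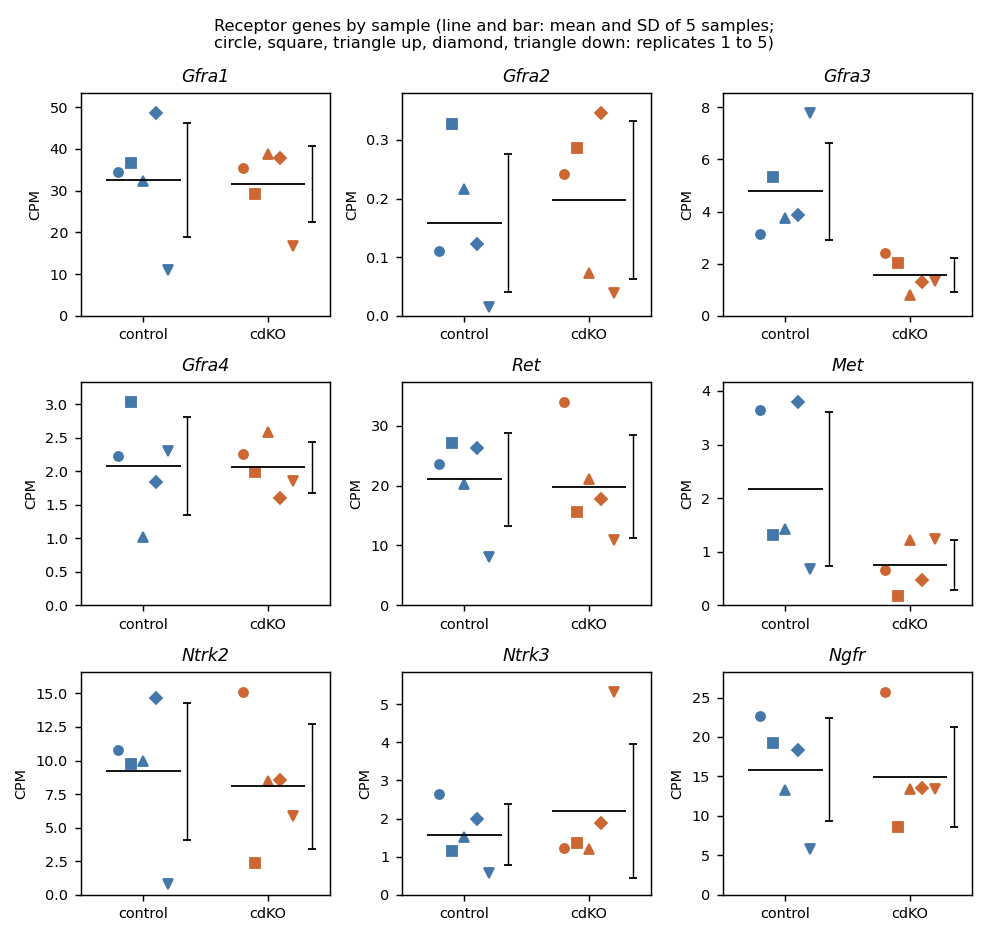
CPM (y axis, linear from 0) of the 9 receptor genes in 5 control and 5 cdKO samples, with the mean as a line, the SD as a bar and a symbol for each replicate number. Gfra3 is the gene whose groups do not overlap, control replicate 5 is the lowest control sample for Gfra1, Gfra2, Ret, Met, Ntrk2, Ntrk3 and Ngfr, and cdKO replicate 5 stands above the others for Ntrk3.

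Met was the relative with a value nearest to that of Gfra3. The gene (ENSMUSG00000009376, chromosome 6, 17463800 to 17573980, plus strand) had 3.65, 1.31, 1.42, 3.78 and 0.680 CPM in control samples and 0.661, 0.167, 1.22, 0.477 and 1.24 CPM in cdKO samples. All 5 cdKO samples lay below the control median of 1.42 CPM, and 3 of them below the lowest control sample. The control mean was 2.17 ± 1.44 CPM and the cdKO mean 0.753 ± 0.470 CPM (SD, n = 5 each), or 34.7% of it. The log2 fold change was -1.53 (SE 0.61), and its adjusted p of 0.939 by the edgeR test did not pass the threshold of 0.05. The unadjusted p was 0.0250, and an exact two-sided permutation test of log2(CPM + 0.5) over the 252 arrangements gave p = 0.0397, where the smallest possible value is 0.00794.

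Across all genes tested, 0 had an adjusted p under 0.05 by edgeR (890 at an unadjusted p under 0.05, 19 with an adjusted p under 0.05 by DESeq2, 3 by limma-voom and 10 by limma-voom with sample quality weights). Onecut3, nearly absent from cdKO samples, did not pass either, with a log2 fold change of -5.08 and an adjusted p of 0.110 by edgeR. An adjusted p above 0.05 in this fit is therefore not evidence that a gene is unchanged. On simulated counts DESeq2 called 44 unchanged genes, where edgeR called 2. An unadjusted p under 0.05 with a lower level in cdKO samples was reached by 0.825% of the genes tested (147), and among the 8 relatives of Gfra3 by Met alone. Counted over both directions, such a p was found for 4.99% of the genes tested. Met was spread over few counts, with 46 to 363 in control samples and 14 to 99 in cdKO samples. In 21 of its 22 exons the cdKO mean was below the control mean, with the fourth as the exception. In the last exon (2368 bases) it was 61.3% and in exon 3 (1211 bases) 28.1% of the control value, and the groups overlapped in all 22 exons. With the highest bin of each gene alone its log2 fold change was -0.96, and without both libraries numbered 5 it was -2.02 (adjusted p of at least 0.556 over all 24 alternatives).

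The neurotrophin receptors had no common direction. Ngfr (ENSMUSG00000000120, chromosome 11, 95568818 to 95587735, minus strand) had 22.7, 19.2, 13.3, 18.3 and 5.83 CPM in control samples and 25.7, 8.63, 13.4, 13.6 and 13.5 CPM in cdKO samples, with a log2 fold change of -0.09 (SE 0.39, adjusted p = 0.999 by the same edgeR test). The highest and the lowest of the 10 values were those of cdKO replicate 1 and control replicate 5. Leaving out both libraries numbered 5 gave -0.27. In cdKO replicate 5, 83.2% of the counts of Ngfr lay on the third of its exon bases nearest the 3′ end, against 35.7% to 47.0% in the other 9 libraries.

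Ntrk2 (ENSMUSG00000055254, chromosome 13, 58806569 to 59133970, plus strand) had 10.8, 9.73, 9.99, 14.7 and 0.799 CPM in control samples and 15.1, 2.35, 8.50, 8.57 and 5.83 CPM in cdKO samples. Control replicate 5, with 54 counts, was far below the other controls, which had 878 to 1081. The log2 fold change was -0.19 (SE 0.60, adjusted p = 0.999 by the same edgeR test), and -0.40 without both libraries numbered 5.

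Ntrk3 (ENSMUSG00000059146, chromosome 7, 78175959 to 78738012, minus strand) had 2.65, 1.15, 1.52, 1.99 and 0.577 CPM in control samples and 1.22, 1.37, 1.21, 1.88 and 5.32 CPM in cdKO samples. The library of cdKO replicate 5 had the highest value and control replicate 5 the lowest. A log2 fold change of 0.47 was found (SE 0.53, adjusted p = 0.997 by the same edgeR test). Without cdKO replicate 5 it was -0.16, and without both libraries numbered 5 it was -0.38.

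Read together, 6 of the 8 relatives of Gfra3 had a log2 fold change under 0, where 51.8% of all genes tested did. Their median was -0.06, beside -0.02 over all genes tested, and 7 of the 8 were within 0.5 of 0. The 95% interval lay above -1.60, the value of Gfra3, for 7 of the 8, and Met was the exception. As -1.60 is the estimate of a gene chosen for its fall, this is not a test of a difference from Gfra3. Gfra3 had rank 93 from the lowest of the 17828 genes tested, so nearly all estimates lay above -1.60. The shares of all genes within 0.5 of 0, and with an interval above -1.60, were not counted. Neither count is therefore read as particular to the receptor genes. The interval of Gfra3 itself ran from -2.39 to -0.81 and overlapped those of Gfra2, Ret, Met, Ntrk2 and Ngfr. None of the 8 had groups that did not overlap, in either direction, where 0.179% of all genes had every cdKO sample above every control sample. The signs of the small differences were not stable: Gfra1, Gfra2, Gfra4, Ret, Ntrk2, Ntrk3 and Ngfr each changed sign under at least 1 alternative setting. Met kept its sign under all 24. Gfra3 did too, but it was chosen for its fall and the settings refit largely the same samples, so nothing is read from that. The share of all genes that keep their sign was not counted.

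**Figure D3:**
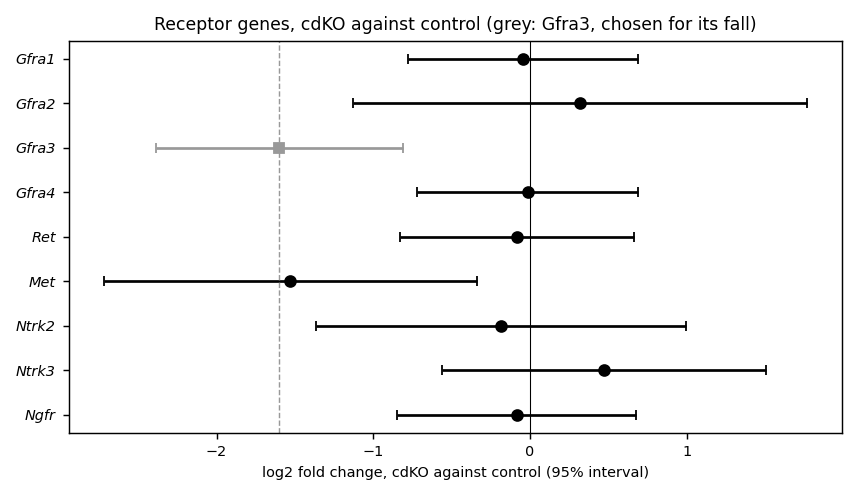
Log2 fold change of cdKO against control for the 9 receptor genes (x axis) with 95% intervals from the fit over all genes. The dashed line marks the -1.60 of Gfra3 (grey, chosen for its value), which lies inside the interval of Met and outside those of the other 7 genes. The interval of Gfra3 itself overlaps those of Gfra2, Ret, Met, Ntrk2 and Ngfr.

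Ntrk2 had few counts on the exons of its kinase end. The 10 coding bins that both kinds of transcript share (1181 bases) had 5180 counts over the 10 samples, and the 5 coding bins of the kinase form alone (887 bases) had 43. This was 1.11% of the density per kilobase on the shared bins. The last shared exon (100 bases) had 527 counts, the first kinase exon (189 bases), which begins with the capitals of the kinase sequence above, had 10, and the kinase-less last bin (5008 bases), which begins with the capitals of the kinase-less sequence, had 927. No count on a kinase coding bin was found in control replicates 2 and 5 and cdKO replicates 2, 4 and 5, and the highest numbers were 15 in control replicate 1 and 14 in cdKO replicate 3.

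All bins of the kinase end together, untranslated bases included, had 71 counts on 6690 bases, so that per base the kinase-less end was covered more densely in 10 of 10 samples. Both ends were covered less densely than the shared coding bins, with a mean of 18.5 counts per kilobase and sample on the kinase-less bin and 439 on the shared bins. The log2 ratio of kinase to kinase-less density was -5.08 ± 2.22 in control samples and -5.35 ± 2.00 in cdKO samples (SD, n = 5 each). The difference of -0.27 was smaller than the spread between samples (exact two-sided permutation test, p = 0.929). For these ratios 0.5 was added to the counts of each end. The kinase end had 0 counts in control replicates 2 and 5 and cdKO replicates 2 and 4. There the ratio was set by this addition and the kinase-less depth, so means, SDs and p rest partly on it.

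Ntrk3 had counts on the exons of both forms, at a much lower depth. Its 9 kinase coding bins (1162 bases) had 315 counts over the 10 samples, its 2 kinase-less coding bins (252 bases) had 65, and the 17 shared coding bins (1585 bases) had 664. At the point of divergence, the last shared exon had 45 counts, the first kinase exon 22 and the first kinase-less bin 35. Of the 315 kinase counts, 136 were those of cdKO replicate 5, the library whose counts lie nearest the 3′ ends, which had 14 counts on the shared bins and 0 on the kinase-less coding bins. The log2 ratio of kinase to kinase-less density over all bins, untranslated bases included, was -3.40 ± 1.36 in control and -3.44 ± 2.10 in cdKO samples (SD, n = 5 each), a difference of -0.04 (exact two-sided permutation test, p = 0.952). The level of this ratio depended on the bins used. On bins that were mostly coding it was -0.44 ± 0.562 in control and -0.32 ± 4.03 in cdKO samples and under 0 in 6 of 10 samples, and the mean density per kilobase and sample was 27.1 counts on kinase and 25.8 on kinase-less coding bins. In cdKO replicate 5, with 0 kinase-less coding counts, this ratio rested on the 0.5 added to each end.

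**Figure D4:**
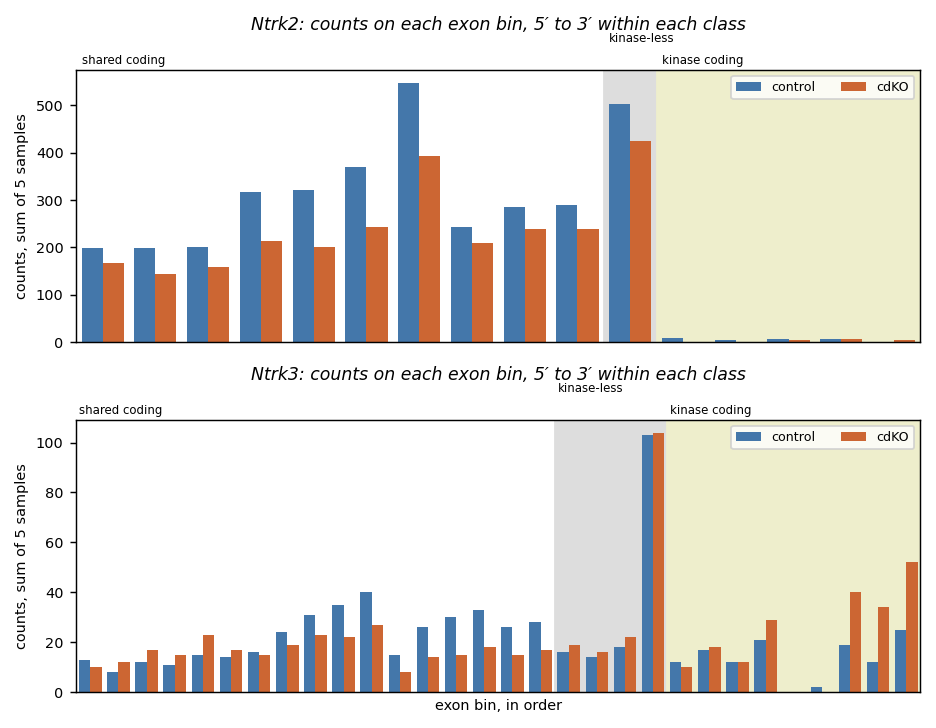
Counts on each exon bin of Ntrk2 (top) and Ntrk3 (bottom), summed over 5 control and 5 cdKO samples, with bins ordered 5′ to 3′ within 3 classes (coding bins shared by both forms, bins of the kinase-less form, kinase coding bins). Bins differ in length. For Ntrk2 the kinase-less bin has 502 and 425 counts and the kinase coding bins 26 and 17 in all, whereas Ntrk3 has counts in all 3 classes.

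Ret was read from both of its ends. The bin of the RET9 end (722 bases) had 79 to 187 counts per sample, and that of the RET51 end (2266 bases) had 42 to 141 in 9 samples and 274 in cdKO replicate 5. Per base the RET9 end was covered more densely in 10 of 10 samples. Only 32 of the 722 bases and 158 of the 2266 bases are coding, and the RET51 end lies nearest the 3′ end of the gene. These densities therefore do not give the shares of RET9 and RET51. The log2 ratio of RET51 to RET9 density was -1.97 ± 0.644 in control and -2.08 ± 0.872 in cdKO samples (SD, n = 5 each). The difference of -0.11 was smaller than the spread between samples (exact two-sided permutation test, p = 0.833). The highest ratio, -0.69, was that of cdKO replicate 5, which had 49.5% of its Ret counts on the third of the exon bases nearest the 3′ end, against 2.96% to 17.8% in the other libraries.

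The 15-base exon of Gfra1 was used in both groups. It had 12 to 134 counts per sample, and these amounted to 51.1% ± 10.4 of the mean of its 2 flanking exons in control samples and 50.6% ± 3.91 in cdKO samples (SD, n = 5 each). As a short exon is overlapped by fewer reads than a long one, this percentage is not the share of transcripts that hold the exon. The difference of -0.40 percentage points was smaller than the spread between samples (exact two-sided permutation test, p = 0.937).

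The receptor genes differed widely in level. Per kilobase of counted exon, the control means were 5.95 ± 2.49 CPM for Gfra1, 4.61 ± 1.90 for Ngfr, 3.11 ± 1.14 for Ret and 2.40 ± 0.933 for Gfra3 (SD, n = 5). Lower levels per kilobase were found for Gfra4 with 0.961 ± 0.339, Ntrk2 with 0.666 ± 0.369, Met with 0.282 ± 0.188, Ntrk3 with 0.0524 ± 0.0263 and Gfra2 with 0.0456 ± 0.0341 CPM. On this scale all counted bases of a gene enter, including the long ends of Ntrk2 and Ntrk3 with few counts. In cdKO samples Gfra3, at 0.791 ± 0.324 CPM per kilobase, stood below Gfra4, at 0.950 ± 0.175, and the order was otherwise the same.

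Neighbours in the control order were compared over the 10 samples in an exact two-sided sign-flip permutation test, adjusted over the 8 pairs. The control samples that set the order are among those tested, and both groups are pooled. The p-values therefore describe the differences and are not independent support for the order. Ngfr was above Ret in 10 of 10 samples (adjusted p = 0.0156), Ntrk2 above Met in 9 of 10 (adjusted p = 0.0156) and Met above Ntrk3 in 7 of 10 (adjusted p = 0.0430, exact permutation test). The last of these held in 5 of 5 control and 2 of 5 cdKO samples. The pairs of Gfra1 with Ngfr, Gfra4 with Ntrk2 and Ntrk3 with Gfra2 did not differ beyond their spread (exact adjusted p of 0.0599, 0.0599 and 0.457). For the 2 pairs with Gfra3 no p is given, as it was chosen by its level. Ret was above Gfra3 in 9 of 10 samples and in 4 of 5 controls, and Gfra3 was above Gfra4 in 7 of 10 samples and in 5 of 5 controls. With 150 bases added to each bin length, 5 of the 9 genes kept their rank, and with the longest bin of each gene 3 did. With the longest bin Ntrk2 stood below Met, with control means of 0.00651 and 0.203 CPM per kilobase.

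**Figure D5:**
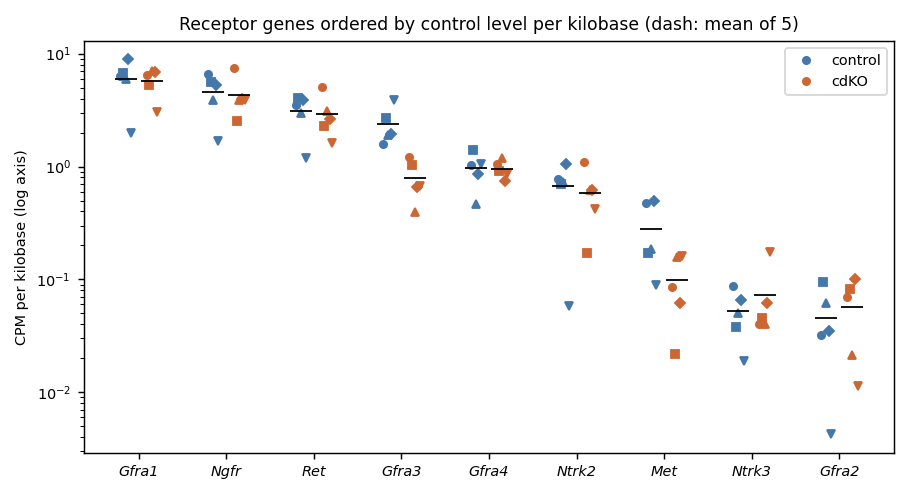
CPM per kilobase of counted exon (y axis, log scale) for the 9 receptor genes in order of their control mean, with every control and cdKO sample as a point and the mean of 5 as a dash. Gfra1, Ngfr and Ret lead in both groups, and Gfra3 is the gene that changes place, from above Gfra4 to below it.

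Most ligands of these receptors had few counts in the sorted cells. Hgf, the ligand of MET, had 0 counts in all 10 libraries, which allows up to 0.0591 CPM in the library with the smallest scaled size, for counting error only. Gdnf had 0 to 11 counts, Ntf5 2 to 13, Pspn (persephin) 2 to 27 and Artn (artemin, the ligand of GFRα3) 0 to 45 counts per sample. Nrtn (neurturin) and Bdnf reached 48 to 199 and 33 to 170 counts, and neither had an adjusted p under 0.05.

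Ntf3, which encodes neurotrophin-3, the ligand of TrkC, had the highest counts of the ligands. Its CPM was 8.69, 6.70, 6.54, 4.83 and 4.75 in control samples and 15.7, 6.99, 14.2, 11.3 and 33.2 in cdKO samples. Of the 5 cdKO samples, 4 lay above the highest control sample and replicate 2 below it. The log2 fold change was 1.37 (SE 0.40), with an unadjusted p of 0.00433 and an adjusted p of 0.939 by edgeR, which did not pass the threshold. An unadjusted p under 0.05 with a higher level in cdKO samples was found for 4.17% of all genes tested. Without cdKO replicate 5 the log2 fold change was 0.93, and without both libraries numbered 5 it was 0.84.

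Lists of genes around these receptors held few differences. Over the ligands and 7 lists of co-receptors, adaptors, targets and other trophic receptors, 78 genes were tested besides the 9 receptor genes. None had an adjusted p under 0.05, 0 were lower and 2 higher at an unadjusted p under 0.05 by edgeR (0.825% and 4.17% of all genes), and 0 had groups that did not overlap. The median log2 fold change was -0.16. Without both libraries numbered 5, 4 of 81 genes tested were lower and 1 was higher at an unadjusted p under 0.05, beside 1.52% lower and 0.900% higher of all genes in that setting, and 0 had an adjusted p under 0.05.

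The 2 genes were Ntf3 and Spry2, which encodes a feedback inhibitor of receptor tyrosine kinase signalling. Spry2 had 0.692 to 1.39 CPM in control samples and 0.918 to 6.23 in cdKO samples, with a log2 fold change of 1.28 (SE 0.53, adjusted p = 0.939 by edgeR). Its highest value was that of cdKO replicate 5, and leaving this library out gave 0.53. Among the 10 transcriptional and feedback targets of receptor tyrosine kinases, Spry2 was the exception, since the other 9, with Etv1, Etv4, Etv5, Dusp6, Egr1 and Fos among them, had log2 fold changes under 0, where 51.8% of all genes did. The median of the list was -0.49, and none of its members had an adjusted p under 0.05. Control replicate 5 had the highest sum of this list, at 210 CPM, against 85.5 to 119 in the other controls and 63.3 to 122 in cdKO samples. Without control replicate 5, 8 of 10 members were under 0 with a median of -0.21 (50.6% of all genes under 0). Without cdKO replicate 5 it was 9 of 10 with a median of -0.36 (50.2% of all genes). Without both libraries numbered 5 it was 7 of 10 with a median of -0.20 (49.4% of all genes).

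The other lists gave no gene with an unadjusted p under 0.05. Among the GDNF family co-receptors and alternatives, Itgb1, Cdh2 and Ncam1, which encode adhesion molecules, had the highest levels, and 3 of the 5 members tested had a log2 fold change under 0 (list median -0.21). Of the 13 neurotrophin co-receptors and adaptors tested, 7 were under 0 (median -0.07), with Maged1, Bex3 and Ndfip1 the highest in level. Of the 6 HGF pathway members tested, 5 were under 0 (median -0.42), with Plxnb1, Gab1, an adaptor of MET, and Spint2, an inhibitor of the proteases that activate HGF, the highest. Of the 5 gp130 cytokine ligands and receptors tested, 3 were under 0 (median -0.05), led by Cntfr, Il6st and Lifr. Of the 25 adaptors and effectors, 11 were under 0 (median 0.01), led by Grb10, Plcg1 and Grb2. Of the 8 other trophic receptors, 6 were under 0 (median -0.33), led by Nrp1, Erbb2 and Igf1r.

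The likeness of Gfra3 to its relatives across samples changed when the libraries numbered 5 were left out. After each group mean was taken off, the Pearson correlation of log2(CPM + 0.5) over the 10 samples, which share library and depth effects, was -0.27 with Ret and -0.35 with Ngfr, and over the 8 samples without these libraries it was 0.37 and 0.19. With Gfra1 it was -0.51 and -0.28, with Ntrk2 -0.54 and -0.092, with Ntrk3 -0.52 and -0.42, with Met -0.74 and -0.61, and with Gfra4 0.22 and 0.12. Gfra2, whose mean was under 1 CPM, was not compared over the 10 samples. Over the 8 samples its value was 0.68, from few counts. Over 10 samples with library size only, the values were -0.26 for Gfra1, -0.11 for Ret, -0.30 for Ngfr and -0.46 for Ntrk2. In that setting they were -0.67 for Ntrk3, -0.73 for Met and 0.20 for Gfra4. With Spearman ranks they were -0.52 for Gfra1, -0.20 for Ret, -0.14 for Ngfr and -0.30 for Ntrk2. Ranks gave -0.43 for Ntrk3, -0.62 for Met and 0.14 for Gfra4. Ret had correlations of 0.89 with Gfra1, 0.87 with Ngfr and 0.87 with Ntrk2, and of 0.39, 0.91 and 0.79 without the libraries numbered 5. Of 13533 genes with a mean of at least 1 CPM, those most like Gfra3 were Rnps1 and Nxf1 (0.93 each), Gpank1 (0.90), Ccdc114 and Sf3b4 (0.89 each). Those most like Ret were Slc12a9, Esyt1, Atp13a2, Timp2 and Trappc9 (0.99 each). These names depended on the measure, since 1 or 2 of the 5 stayed when library size replaced TMM or Spearman replaced Pearson.

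Promoter windows (250 bases before to 50 after a gene's start, RefSeq, GRCm38.p6) were at hand for 5 of the 9 genes, Gfra1, Gfra4, Met, Ntrk2 and Ngfr. The letters ATCGAT or ATCAAT, on either strand, which belong to sequences bound by OC factors, occurred in 0 of their 6 windows and in 8.40% of all 32851 windows. This says only that these letters are not in these windows.

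Markers of the sorted cells and of other cells were read beside these results, and their part in them was not tested. The 10 MN markers summed to 564 to 824 CPM in control and 428 to 951 CPM in cdKO samples, led by Isl1 and Lhx3. Isl1, which encodes a transcription factor of MNs, had 225 ± 80.6 CPM in control and 127 ± 32.9 in cdKO samples (SD, n = 5 each, log2 fold change -0.83, SE 0.31, adjusted p = 0.939 by edgeR). The 8 progenitor markers, led by Hes5 and Sox9, and the 4 V3 markers, led by Nkx2-9 and Nkx2-2, had no member at an unadjusted p under 0.05. Markers of sensory neurons and neural crest, which also express Ret, Gfra3 and Ngfr, summed to 48.2 to 70.0 CPM in control and 29.0 to 62.9 CPM in cdKO samples, with 9 of the 14 members tested. Of their defining members, Sox10 was at 0.0543 to 0.267 CPM, and Pou4f1 at 0.115 to 1.08 CPM in 9 libraries and 4.20 CPM in cdKO replicate 5.

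Sympathetic and enteric markers, led by Th, summed to 154 to 350 and 207 to 469 CPM. Erythroid markers, led by Hbb-y and Hba-x, summed to 0.902 to 19.1 CPM in control and 2.91 to 66.2 CPM in cdKO samples, mesenchymal ones, led by Col3a1 and Col1a2, to 9.11 to 20.9 and 12.1 to 24.0 CPM, and 2 of 6 erythroid and 2 of 8 mesenchymal members tested were higher in cdKO samples at an unadjusted p under 0.05 (4.17% of all genes). Endothelial markers, led by Kdr and Pecam1, and macrophage markers, led by Csf1r and Aif1, summed to at most 3.27 and 6.94 CPM. Lumbar Hox genes, led by Hoxa10 and Hoxd10, summed to 0.994 and 1.39 CPM in control replicates 1 and 5, to 36.2 to 57.1 in the other controls and to 15.2 to 104 in cdKO samples, and 1 of the 7 was higher in cdKO samples at an unadjusted p under 0.05.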

How the data were processed

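RNA of YFP-positive cells from e10.5 spinal cord was analysed in 10 samples, 5 control and 5 cdKO, grouped by their titles. Per the labels, libraries were made with a NEBNext Ultra kit (the methods name an ultra-low input library) and sequenced as paired ends. The submitters' processing notes name bcl2fastq 2.17, Trimmomatic 0.36, STAR 2.5.2b, Subread 1.5.2, DESeq2 and GRCm38. The authors deposited whole-number counts per exon bin, not normalized. Reads overlapping several bins were counted on each, without strand. Titles give e10.5 for all samples, while the sample descriptions count upward from it.

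Bins were assigned to genes with GENCODE M21 (49384 of 49644 identifiers found) and summed per gene. Where several genes covered a bin it went to the only protein-coding one, and otherwise it was left out (4009 of 425461 bins, 1.25% of counts). A filter on low counts (filterByExpr, minimum 10), TMM scaling and the quasi-likelihood test were run in edgeR 4.0.16 (R 4.3.3), with Benjamini-Hochberg adjustment and a threshold of 0.05. SEs were taken from the log2 fold change and its F. The 95% intervals are the log2 fold change ± 1.96 SE, somewhat narrower than intervals from the F test. Alternatives used DESeq2 1.42.0, limma 3.58.1, other scalings, filters and bins, a replicate block, and samples left out. Floors cover counting error only, since reads are not independent molecules. On simulated counts (17459 genes), edgeR called 57 of 95 genes changed by 2 and 84 of 96 changed by 3 on the log2 scale, and 2 unchanged ones. DESeq2 (17828 genes) called 72 of 100 and 95 of 100, and 44 unchanged ones. Unchanged genes called by limma-voom numbered 2, and 1 with sample quality weights. No 2 samples of a group were duplicates (chi-square per degree of freedom at least 122 over 20 pairs).

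The 9 receptor genes, the ligand, pathway and marker lists and the tests were chosen with earlier results of these data known. Besides the 9 genes, the text names their ligands, pathway genes with an unadjusted p under 0.05 or groups that do not overlap, otherwise the 3 highest in level of each list, the 2 highest of each marker list and the 5 genes most like Gfra3 and Ret. Sox10, Pou4f1, Nes, Olig1, Sim1, Uncx, Gm16277, Mir6973b and the named targets Etv1, Etv4, Etv5, Dusp6, Egr1 and Fos were named after their values were seen. Some genes that this rule names are not reported here.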

Additional observations from a re-analysis of the deposited data

Results flagged for a closer look

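The CPM of Ntrk3 in cdKO replicate 5 was 5.32, while the other 4 cdKO samples lay between 1.21 and 1.88. The gap to the nearest sample, divided by the range of the group, was 0.835 and above the limit of Dixon's test for 5 samples. Of 18 groups checked (9 genes in 2 groups), this was the only 1 past the limit, and chance gives about 1 in 20. Of the 270 counts of Ntrk3 in this library, 191 lay on bins of the kinase end and 14 on the shared coding bins, and its median share of counts nearest the 3′ end was 49.5%. The part of that coverage in the value was not tested.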

How the results depend on the processing

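All 24 alternatives gave 0 receptor genes with an adjusted p under 0.05. The log2 fold change lay between -1.81 and -1.31 for Gfra3 and between -2.12 and -0.96 for Met, and the unadjusted p of Met was above 0.05 with the highest bin (0.238), the last 500 bases (0.160) and without control replicate 1 (0.0708) or 4 (0.0680). Over all genes, 0 had an adjusted p under 0.05 in edgeR, against 1 with library size only, no filter or the last 500 bases, 3 with limma-voom, 10 with sample quality weights, 19 with DESeq2 and 0 to 4 with a sample left out (4 without control replicate 5, 1 without cdKO replicate 5). Without both libraries numbered 5, alone or with the last 500 bases, there were 4. These settings, the coding bins below and the correlations and gene lists without these libraries were chosen after seeing the data. Genes higher and lower at an unadjusted p under 0.05 numbered 743 and 147, but 381 and 252 with library size only (which moved the median of all genes to -0.15), 957 and 467 with DESeq2, 161 and 159 with voom, 794 and 677 with weights, 1257 and 862 with no filter, 109 and 319 without cdKO replicate 5 and 161 and 272 without both libraries numbered 5. The cause was not tested.

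The count of receptor genes under 0 was 7, against 4 with voom and 3 with the last 500 bases, where Ntrk2, Ntrk3 and Gfra2 had too few counts. Signs turned for Gfra1 (0.048 with voom, 0.049 with weights, 0.13 with the last 500 bases), Gfra4 (0.049 with voom, 0.49 with weights, 0.058 with the highest bin, 0.13 with the last 500 bases, 0.045 without both libraries numbered 5 and 0.13 with both changes), Ret (0.0093 with the last 500 bases), Ntrk2 (0.027 with voom) and Ntrk3 (-0.25 with weights, -0.38 without both libraries numbered 5). With a sample left out, the range was -0.27 to 0.11 for Gfra1, -0.013 to 0.76 for Gfra2, -0.19 to 0.16 for Gfra4, -0.37 to 0.068 for Ret, -0.54 to 0.047 for Ntrk2, -0.16 to 0.74 for Ntrk3 and -0.37 to 0.077 for Ngfr. The difference in kinase ratio ranged from -1.06 to 0.40 for Ntrk2 and from -0.58 to 0.67 for Ntrk3, and was 0.11 for Ntrk3 with coding bins only. Ranks per kilobase were kept by 5 genes with 150 bases added and by 3 with the longest bin. Of the 5 genes most like Gfra3, 1 stayed with library size only and 2 with Spearman, and of those most like Ret 2 and 2.

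Same-numbered samples had correlations of 0.0952, -0.317, 0.165, 0.428 and 0.361, with a mean of 0.147 against -0.0156 for other numbers, and 2 of 5 control samples correlated best with their own number. As not every pair passed 0.1 and no label ties the numbers to a batch, they were not taken as pairs. The numbers in the names of some deposited files differ from those in the titles, which are used here. With the replicate block 0 genes had an adjusted p under 0.05 and 461 an unadjusted one, and the log2 fold change was -1.63 for Gfra3, -1.60 for Met, 0.044 for Gfra1 and 0.036 for Gfra4. Depth limits the genes and exons with few counts, Gfra2 (1 to 34 counts), Met (14 to 363), Ntrk3 (39 to 270), Gfra4 (89 to 315) and the kinase exons of Ntrk2.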
